A study of Arabidopsis thaliana with 8 samples.

Results

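The pif4 hybrid was compared with the Col hybrid of Arabidopsis thaliana at 22 °C, in 4 of the series' 8 RNA sequencing libraries. The libraries were chosen by their labels: the pif4 hybrid (C24xpif4-101) and the Col hybrid (C24xCol) at 22 °C, each collected 4 and 7 days after sowing at ZT0, the time of lights on. Each condition had 1 library made from pooled whole seedlings, so the comparison rests on 2 pairs of libraries, 1 for each day. Both hybrids were grown on agar medium with short days after cold stratification, and both germinated at 22 °C. The other 4 libraries hold the same hybrids and days at 27 °C. Both groups have C24 as 1 parent. The labels give neither the generation of the hybrid nor which PIF4 copies it carries, so a hybrid with 1 intact copy and a hybrid with none cannot be told apart from them.

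PIF4 is a basic helix-loop-helix transcription factor whose activity is held down by light through phytochrome B. In Arabidopsis it activates genes of auxin synthesis, auxin response and cell wall loosening through G-box and related DNA elements, and it is best known for stem elongation in shade and in warmth. The pif4-101 allele is an insertion mutant in the Col background. The series title places the work in the question of what PIF4 does in the hybrid at moderate and high temperature, and 22 °C is the moderate one.

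Genes were ranked by p at 22 °C among those with the same sign on both days. The first of those lower in the pif4 hybrid included the PIF-induced genes IAA29, which led them, and XTH15. The first of those higher included the iron uptake genes FRO2, CYP82C4 and IRT1. No gene passed the threshold, an adjusted p of 0.05 in edgeR's quasi-likelihood test with Benjamini-Hochberg adjustment: 0 of 19829 genes tested were called higher (0%) and 0 were called lower (0%). The smallest adjusted p was 0.163, for IAA29. Without adjustment, 202 genes (1.02%) were higher and 221 (1.11%) lower at a p under 0.05, 2.13% in either direction. DESeq2's Wald test called 0 higher and 1 lower. A fit on the 4 libraries of 22 °C alone, with day as block and 1 residual degree of freedom, called 31 higher and 47 lower. A call in that fit does not show that the days agree. DIN1 was called lower there with 152 CPM in the Col and 154 in the pif4 hybrid on day 7. All p-values measure the spread between these libraries, and nothing in the labels says that the 2 pairs came from separate sowings. In the fit on 8 libraries this spread is how far the hybrid difference disagrees between the days, with an estimate partly shared over genes. A true change of that difference between days therefore counts as spread. Values below are therefore described as higher or lower, with the test beside them, and none is a call unless it is said to be one.

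Depth was uneven. At 22 °C on day 4 the Col hybrid library held 1664128 counts and the pif4 hybrid library 8880735, and on day 7 they held 11711681 and 17884174. The pif4 library was thus 5.34 times as deep on day 4 and 1.53 times on day 7. The spread of log2 ratios over all genes followed this, with an SD of 0.69 on day 4 and 0.30 on day 7. A count of 0 allows up to 2.15 CPM, counts scaled to the library total, in the shallowest library and 0.166 in the deepest, which covers counting error only. The day 4 and day 7 ratios had a Pearson correlation of 0.06 across genes, and genes are not independent replicates. Of all genes tested, 26.3% were lower on both days and 26.6% higher on both days.

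One group of loci set the Col hybrid libraries of day 7 apart. In both of them, at 22 °C and at 27 °C, 16 loci stood below 0.25 times the lowest of the other 6 libraries, with 0.5 CPM added to both values. They are 16 of the 14166 loci that had at least 5 CPM in each of those 6. No such locus was found for the other 3 combinations of hybrid and day. In the reference annotation 14 of the 16 have a symbol that contains a space, against 47 of the 14166. LRR XI-23, a receptor kinase gene, had 123 CPM in the Col and 146 in the pif4 hybrid on day 4, and 2.19 and 67.0 on day 7. EIF2 GAMMA, which encodes a subunit of a translation initiation factor, had 85.9 and 98.7 CPM on day 4 and 5.86 and 90.1 on day 7. These loci look higher in the pif4 hybrid through the day 7 pair, and the cause was not tested. They made up 15 of the 31 genes called higher in the fit on 4 libraries, which leaves 16. One of those 16, SEC61 BETA, also has a symbol with a space and a low Col value on day 7 (71.5 and 63.2 CPM on day 4, 18.5 and 81.4 on day 7) but did not meet the 0.25 limit. None of the 16 loci below the limit is in a gene list used here.

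PIF4 itself (AT2G43010, chr2:17886101-17889087, plus strand, TAIR10.1) was counted in every library. It had 97.3 CPM in the Col and 79.5 in the pif4 hybrid on day 4, and 72.8 and 62.5 on day 7, after scaling by TMM factors, as all CPM here are. The pif4 hybrid was lower on both days, and the fitted log2 fold change was -0.25 (SE 0.18, 2 pairs, unadjusted p = 0.182 in edgeR's test). Counting intervals (95%, exact Poisson) were 81.6 to 115 and 73.7 to 85.7 CPM on day 4 and overlapped, while those of day 7, 67.9 to 77.9 and 58.9 to 66.3, did not. What transcript pif4-101 leaves is not given in the sources used here, and a count over the whole gene does not separate the C24 copy from the mutant one, so the PIF4 level does not check the labels. Among the 20 loci next to PIF4, 12 were tested, with a median log2 fold change of -0.06 and 1 at an unadjusted p under 0.05, AT2G42980.

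The other PIF genes differed little. None of the 7 family members had an unadjusted p under 0.05, and their log2 fold changes ran from -0.26 to 0.19. PIF5, the closest relative of PIF4, had 201 and 181 CPM on day 4 and 127 and 126 on day 7. PIF7, which also acts in shade, had 10.7 and 11.5 CPM on day 4 and 9.80 and 11.5 on day 7. Its direction, with those of PIF1, PIF3 and UNE10 (PIF8), depended on the setting used.

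A list of 30 shade and elongation genes known to be induced by PIF factors leaned lower in the pif4 hybrid. Of the 29 that could be tested, 7 had an unadjusted p under 0.05 and were lower, against 1.11% of all genes, and 0 were higher. The median log2 fold change was -0.31, against 0.00 for all genes. It was -0.50 on day 4 and -0.15 on day 7. On both days 21 members were lower, which is 72.4% against 26.3% of all genes, and 0 were higher. FT, the florigen gene, was not tested because its counts were too low. The median moved to -0.09, with 17 of 29 below 0, when the library total entered the fit as a covariate. The pif4 library was the deeper on both days at 22 °C, so that fit cannot fully separate depth from hybrid. The median was -0.15 to -0.16 without either day 4 library and -0.52 without either day 7 library.

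IAA29 (AT4G32280, chr4:15583332-15584903, plus strand, TAIR10.1), a repressor of auxin response that auxin and PIF factors induce, had the smallest p of all genes. It had 63.7 CPM in the Col and 16.1 in the pif4 hybrid on day 4, and 35.4 and 19.9 on day 7. Neither pif4 library came near the Col library of its day, and the counting intervals did not overlap: 51.1 to 78.4 against 13.5 to 19.0 CPM on day 4, and 32.1 to 39.1 against 17.9 to 22.1 on day 7. The log2 fold change was -1.32 (SE 0.22, 2 pairs, unadjusted p = 8.2e-06, adjusted p = 0.163 in edgeR's test). IAA29 was called in 10 of the 19 alternative fits, and its adjusted p over them ran from 2.15e-17 to 1.

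XTH15, which encodes an enzyme that cuts and rejoins the xyloglucan of the cell wall, had 74.4 and 30.4 CPM on day 4 and 26.3 and 20.5 on day 7 (log2 fold change -0.79, SE 0.22). ST2A, a sulfotransferase gene that acts on hydroxyjasmonate, had 20.7 and 7.92 CPM on day 4 and 19.9 and 11.7 on day 7 (-0.97, SE 0.32). The pif4 library was the lower of the pair on both days for both genes. XTH15 overlaps AT4G14120 on the opposite strand, and since 1 of the kits named in the labels does not keep strand, its reads may include some of that neighbour. PIL1, a bHLH gene that is a classic marker of shade and of PIF activity, had 9.30 and 5.01 CPM on day 4 and 9.53 and 6.37 on day 7. IAA19, another repressor of auxin response, had 12.2 and 3.73 CPM on day 4, and 12.3 and 9.48 on day 7. Its day 4 gap was far wider than that of day 7. FHL, which carries phytochrome A into the nucleus, and LNG1, which promotes lengthwise cell growth, completed the 7, with log2 fold changes of -0.55 and -0.38.

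**Figure D1:**
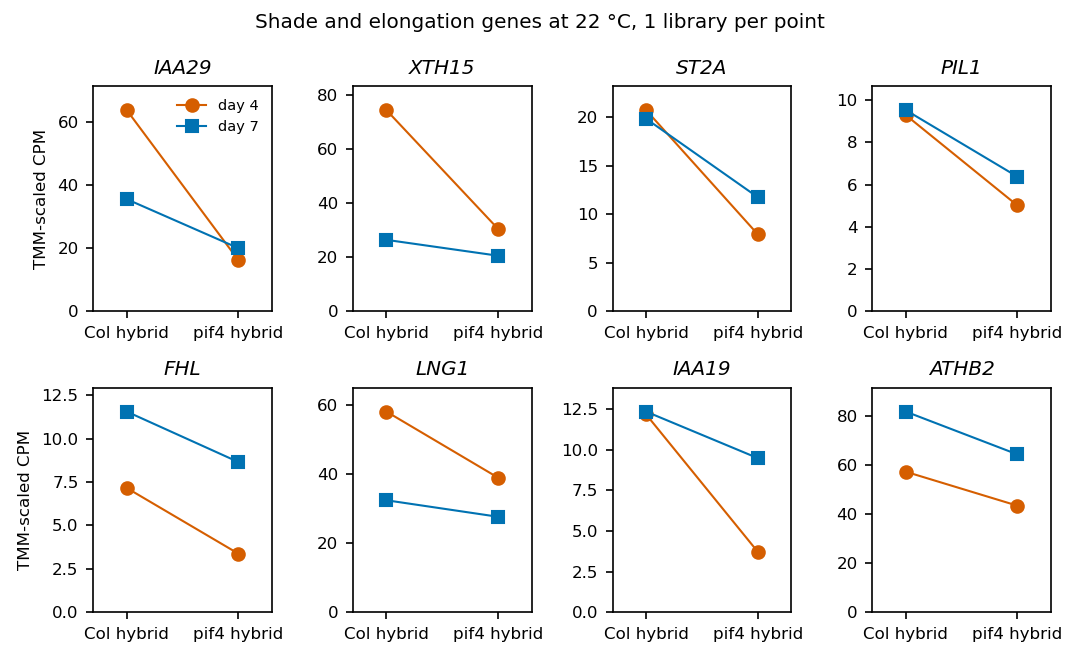
TMM-scaled CPM on a linear axis from 0 for the 8 shade and elongation genes with the smallest p at 22 °C, in the Col hybrid and the pif4 hybrid, with 1 library per point and a line joining the libraries of a day. In each panel both lines run downward, from 63.7 to 16.1 CPM on day 4 for IAA29. In several panels, among them IAA29, XTH15, ST2A, PIL1, LNG1 and IAA19, the day 7 line falls less than that of day 4.

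The other members had an unadjusted p above 0.05, and some had fold changes as large. ACS8, an ethylene synthesis gene (log2 fold change -0.64, SE 0.51), and PRE5, a growth-promoting HLH gene (-0.65, SE 0.49), had low counts and wide errors. ATHB2, a homeodomain gene induced by shade, had 57.2 and 43.4 CPM on day 4 and 81.7 and 64.3 on day 7 (log2 fold change -0.37, SE 0.18, unadjusted p = 0.0537 in edgeR's test). HFR1, which encodes an inhibitor of PIF proteins, had 40.8 and 39.5 CPM on day 4 but 127 and 86.5 on day 7, so its gap was in the older seedlings. PAR1, another such inhibitor, differed on day 4, with 76.6 and 40.3 CPM, and hardly on day 7, with 59.1 and 57.6. YUC8, an auxin synthesis gene that PIF4 is known to activate in warmth, had 5.01 and 5.12 CPM on day 4 and 7.70 and 6.48 on day 7. SAUR19 to SAUR24, small auxin-induced genes of growth, are near-identical copies whose reads may be shared, and their log2 fold changes ran from -0.35 to 0.05.

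PIF proteins bind the G-box (CACGTG) and the PBE-box (CACATG), and 3 of the 7 promoters held a match to either. These 3 are shown with that of IAA29, the gene of smallest p. The promoters of IAA29, XTH15, ST2A and PIL1 held neither motif. Each is the 300 bases before the annotated gene start in RefSeq's TAIR10.1, printed 5′ to 3′ along the gene's strand, with matches to either motif on either strand in capitals. FHL is at chr5:437065-437364 (plus), IAA19 at chr3:5263701-5264000 (plus), LNG1 at chr5:5072493-5072792 (minus) and IAA29 at chr4:15583032-15583331 (plus).
FHL: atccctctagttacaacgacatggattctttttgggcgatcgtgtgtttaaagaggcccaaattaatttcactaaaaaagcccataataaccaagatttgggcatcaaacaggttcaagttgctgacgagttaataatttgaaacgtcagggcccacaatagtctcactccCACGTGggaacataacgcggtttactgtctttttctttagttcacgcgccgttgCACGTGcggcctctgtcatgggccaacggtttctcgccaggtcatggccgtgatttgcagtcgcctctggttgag
IAA19: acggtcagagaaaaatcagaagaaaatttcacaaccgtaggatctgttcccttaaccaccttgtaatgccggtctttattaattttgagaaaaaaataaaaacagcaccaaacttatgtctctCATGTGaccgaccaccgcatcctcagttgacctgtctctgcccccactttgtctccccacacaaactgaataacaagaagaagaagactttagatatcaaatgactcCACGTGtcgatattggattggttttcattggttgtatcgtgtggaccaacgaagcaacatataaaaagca
LNG1: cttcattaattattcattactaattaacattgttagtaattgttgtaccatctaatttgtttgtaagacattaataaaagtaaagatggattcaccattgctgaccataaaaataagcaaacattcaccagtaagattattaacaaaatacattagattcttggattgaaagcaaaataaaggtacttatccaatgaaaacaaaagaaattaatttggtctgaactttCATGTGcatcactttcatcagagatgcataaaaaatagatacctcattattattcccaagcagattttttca
IAA29: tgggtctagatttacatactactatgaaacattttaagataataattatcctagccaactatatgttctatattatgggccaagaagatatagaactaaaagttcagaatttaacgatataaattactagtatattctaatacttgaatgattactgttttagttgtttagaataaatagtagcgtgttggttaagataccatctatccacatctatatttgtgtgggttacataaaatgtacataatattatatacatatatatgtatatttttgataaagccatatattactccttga
FHL holds 2 G-boxes, IAA19 1 of each motif, LNG1 1 PBE-box as its reverse complement, and IAA29 neither motif in these 300 bases. Over the list, 2 of 30 promoters (6.67%) held a G-box and 12 of 30 (40%) a PBE-box, beside 7.09% and 13.1% of the 27443 promoters of protein-coding genes. Of the 12, 3 belong to SAUR genes that are near-identical copies. The iron list, which leaned the other way, held a G-box in 5 of 21 promoters and a PBE-box in 5 of 21 (23.8% each). A match describes the letters and shows no binding.

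Lists of auxin, wall and gibberellin genes gave fewer members at an unadjusted p under 0.05, where 1.11% of all genes were lower and 1.02% higher. In auxin early response these were IAA29 and IAA19, 2 of 20, both already described, and the list's median was -0.06. No auxin synthesis gene of the 9 tested was among them, and their median was -0.19. In cell wall loosening, 3 of 23 were lower: XTH15, XTH16 and EXPA16. EXPA16, an expansin gene, had 24.3 and 16.4 CPM on day 4 and 13.1 and 9.59 on day 7 (log2 fold change -0.50, SE 0.19). Of 14 gibberellin genes, 3 were lower. GAI, which encodes a DELLA repressor of gibberellin response, had 107 and 68.2 CPM on day 4 and 99.1 and 77.6 on day 7 (-0.49, SE 0.18). The DELLA gene RGL1 (-0.65) and the synthesis gene GA3OX1 (-0.70), which makes active gibberellin, were the other members.

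Several iron uptake genes stood higher in the pif4 hybrid. In Arabidopsis roots, FRO2 reduces ferric iron at the surface, IRT1 carries ferrous iron into the epidermis, and both are switched on by FRU (FIT) together with bHLH38 and bHLH39. Of the 18 tested of 21 listed, 7 had an unadjusted p under 0.05 and were higher, against 1.02% of all genes, and 0 were lower. The median log2 fold change was 0.39, with 0.60 on day 4 and 0.20 on day 7, and 11 members (61.1%) were higher on both days against 26.6% of all genes. Without either day 4 library the median, which then rests on the day 7 pair alone, was 0.19 to 0.20. Without either day 7 library, which leaves the day 4 pair, it was 0.65. After thinning to the depth of the shallowest library, which left 13 members, it was 0.17. With the library total as a covariate it was 0.31, and 3 of 18 were higher and 2 lower at an unadjusted p under 0.05. The list also covers genes of the iron stores and of negative control, which were not among the 7.

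FRO2 (AT1G01580, chr1:208995-213082, plus strand, TAIR10.1) had 53.7 CPM in the Col and 85.0 in the pif4 hybrid on day 4, and 22.7 and 41.4 on day 7. Its log2 fold change was 0.78 (SE 0.19, 2 pairs, unadjusted p = 0.000591 in edgeR's test). IRT1 (AT4G19690, chr4:10707344-10709015, plus strand) had 88.7 and 169 CPM on day 4 and 49.9 and 84.5 on day 7 (0.84, SE 0.22). CYP82C4, a cytochrome P450 gene of the root response to low iron, had 21.5 and 38.9 CPM on day 4 and 13.4 and 22.8 on day 7 (0.80, SE 0.20). For all 3 genes the pif4 library exceeded the Col library of its day by a similar log2 ratio on both days, from 0.66 to 0.93. These 3 genes were called in the fit on the 4 libraries of 22 °C, and each had an adjusted p of 1 in the fit on all 8 libraries.

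The regulators were less even across the days. FRU had 16.5 and 38.3 CPM on day 4 but 27.8 and 32.1 on day 7. The gene bHLH39 had 5.72 and 13.7 CPM on day 4 and 8.84 and 14.2 on day 7, and its neighbour bHLH38 had 1.43 and 7.80, then 5.86 and 9.53. The Col value of bHLH38 on day 4 rests on few counts. BTS and FER1, genes of feedback and storage, were not higher on both days. BTS, a ubiquitin ligase gene that restrains the response, had 139 and 142 CPM on day 4 and 55.5 and 47.8 on day 7. The ferritin gene FER1, an iron store, was lower on day 4, with 77.3 and 48.8 CPM, and level on day 7, with 89.2 and 89.5.

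**Figure D2:**
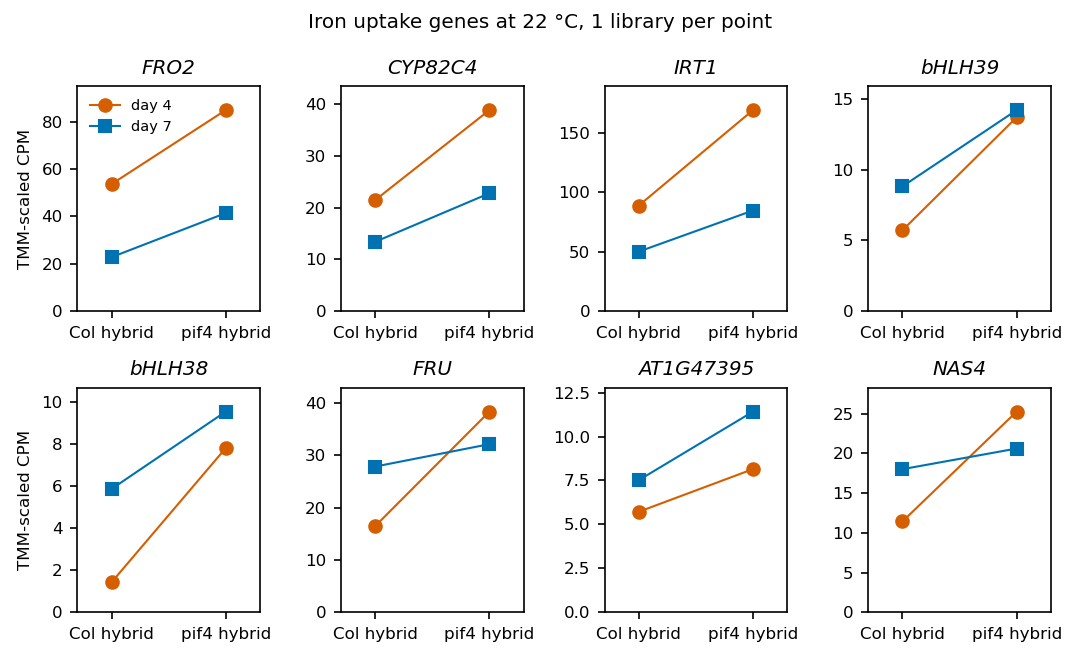
TMM-scaled CPM on a linear axis from 0 for the 8 iron uptake genes with the smallest p at 22 °C, in the Col hybrid and the pif4 hybrid, with 1 library per point and a line joining the libraries of a day. Both lines run upward in each panel, from 88.7 to 169 CPM on day 4 for IRT1, and those of FRU and NAS4 are flatter on day 7.

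Root marker genes leaned the other way. Of 11 markers, 8 (72.7%) were lower on both days, against 26.3% of all genes. At an unadjusted p under 0.05 there were 3, all lower, against 1.11% of all genes. Among the 3 were LRX1 of root hairs and CASP1 of the endodermis. The summed level of the 11 was 228 CPM in the Col and 163 in the pif4 hybrid on day 4, and 99.9 and 86.2 on day 7. None of the 11 was at 0. In whole seedlings a smaller share of root and less root RNA per cell cannot be told apart. The iron uptake genes, which roots express, were thus higher beside root markers that were lower, and the part of tissue makeup in either was not tested.

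The other genes with the smallest p and the same sign on both days came from varied families. AT1G29090, a cysteine protease-family gene, had 36.5 and 23.9 CPM on day 4 and 23.6 and 8.09 on day 7 (log2 fold change -1.14, SE 0.23). AT5G02540, of the NAD(P)-binding Rossmann-fold family, had 34.3 and 12.3, then 38.1 and 23.1 CPM (-1.01, SE 0.21). The proline-rich extensin-like genes AT3G54580 (-0.85) and AT3G28550 (-0.64) and the peroxidase gene AT5G64120 (-0.66) were lower too; extensin-like genes are close copies whose reads may be shared. MGL, the methionine-degrading gene (-0.70, overlapping AT1G64670 on the opposite strand), the zinc finger gene AT5G44260 (-0.78) and COR413IM1, a cold-induced gene of the chloroplast inner membrane (-0.70), made up the 10 lower genes with IAA29 and XTH15.

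On the higher side AT5G35935, whose product is uncharacterized, had 5.72 and 11.4 CPM on day 4 and 2.01 and 6.87 on day 7 (log2 fold change 1.53, SE 0.33). COR27, which links cold and the clock, had 2.15 and 11.5 CPM on day 4 and 17.3 and 28.4 on day 7. Its day 4 Col value rests on 3 counts, with an interval from 0.443 to 6.27 CPM. AT1G13650, also uncharacterized, had 11.4 and 56.7 CPM on day 4 and 102 and 131 on day 7. MTPA2, which encodes a metal transporter that moves zinc into the vacuole in iron-starved roots, had 8.59 and 32.8 CPM on day 4 and 28.0 and 36.2 on day 7. For these, AT5G44572 (0.95) and AT1G13609 (1.21), the gap on day 4 was the wider on the log2 scale, except for AT5G35935. AT4G13575, uncharacterized too, had 50.8 and 70.0 CPM on day 4 and 73.3 and 113 on day 7, with the wider gap on day 7. AT1G13609 and AT5G44572 rest on 1 and 2 counts in the Col library of day 4.

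Of the flowering genes, MAF4 and MAF5, relatives of the repressor FLC, stood higher in the pif4 hybrid on day 7. MAF4 had 5.72 and 5.94 CPM on day 4 and 7.44 and 15.2 on day 7, so the gap was in the day 7 pair. MAF5 had 0.715 and 1.40 CPM on day 4 and 0.700 and 3.33 on day 7, where its counting intervals, 0.302 to 1.38 and 2.54 to 4.28, did not overlap. These 2 were the members at an unadjusted p under 0.05 among 13 tested, against 1.02% of all genes higher at that level. The list median was 0.21. The pair are tandem copies of 1 family, and their reads may be shared. In light signalling, PHYA, the photoreceptor of deep shade, was lower, with 557 and 317 CPM on day 4 and 242 and 188 on day 7 (log2 fold change -0.58, SE 0.23). HYH, a partner of HY5 in light responses, was higher, with 56.5 and 74.3 on day 4 and 61.2 and 81.2 on day 7 (0.40, SE 0.17).

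Of the 16 starvation genes tested, DIN1 and BCAT2 had an unadjusted p under 0.05, but only through day 4. At that level 1.11% of all genes were lower and 1.02% higher. DIN1, a marker of darkness and low sugar, had 630 and 226 CPM on day 4 and 152 and 154 on day 7. BCAT2, of branched-chain amino acid breakdown, had 34.3 and 7.92, then 5.42 and 6.43 CPM. With either day 4 library left out, the effect rests on the day 7 pair alone. Both genes were then slightly higher in the pif4 hybrid, with log2 fold changes of 0.02 for DIN1 and 0.24 to 0.25 for BCAT2. The remaining members at that level were NCED3 and COR413IM1 in the cold and abscisic acid list (2 of 10, lower), BAG6 among heat shock genes (1 of 13, lower) and DFR of anthocyanin synthesis (1 of 10, higher), the last at 1.05 to 2.60 CPM. ST2A was the 1 of 11 in the jasmonate list.

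Genes of light harvesting and the photosystems had the lowest median of any list, -0.50, yet 0 of 35 had an unadjusted p under 0.05 in the fit on 8 libraries. In the fit on the 4 libraries of 22 °C, which called 47 of 18069 genes lower, RBCS1B, RBCS2B and RBCS3B were called. The share of all genes at an unadjusted p under 0.05 in that fit and in the next ones is not given here. In that fit 33 of the 35 were lower at that level. Without any 1 of the 27 °C libraries it was 34 of 35, with 3 to 6 called. On both days 34 of the 35 were lower, with LHCB4.3 as the exception. RBCS3B, a gene of the carbon-fixing enzyme's small subunit, had 5370 and 2450 CPM on day 4 and 1600 and 1217 on day 7 (log2 fold change -0.76, SE 0.37); its RBCS copies may share reads. Both the gap and the sequencing depth differed between the pairs, which also differ in day and temperature. The part of depth in the gap was not tested. The list's median log2 ratio was -0.68 on day 4 at 22 °C, -0.30 on day 7 and -0.56 on day 4 at 27 °C, where the pif4 library was the deeper, and 0.71 on day 7 at 27 °C, where it was the shallower. With the library total as a covariate the median at 22 °C turned to 0.13. That fit left 1 residual degree of freedom. The pif4 library was the deeper on both days at 22 °C, so the fit cannot fully separate depth from hybrid there. The 100 most abundant genes outside the list moved likewise, with medians of -0.37 and -0.14 on day 4 and day 7 at 22 °C, and -0.30 and 0.39 at 27 °C.

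**Figure D3:**
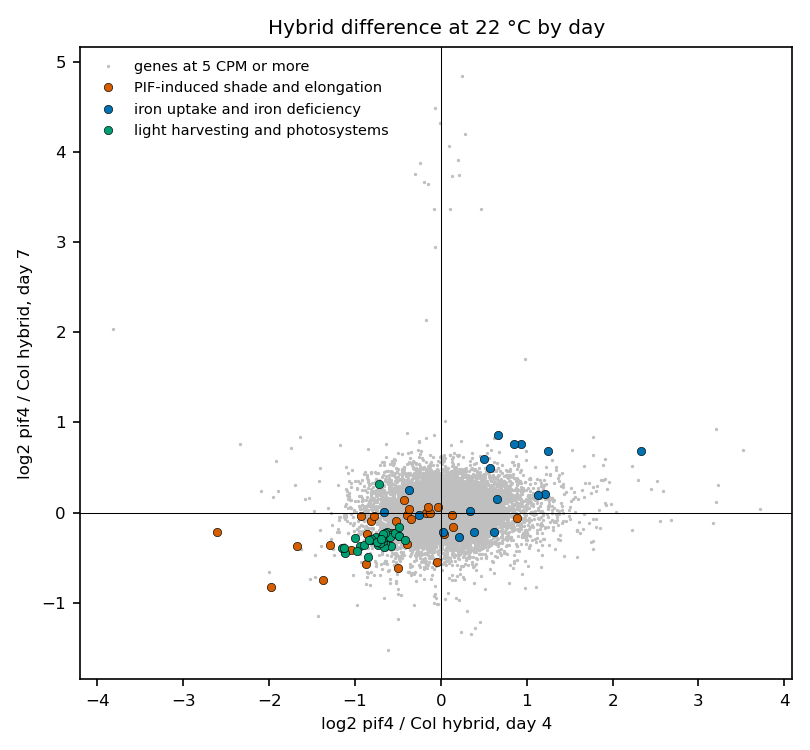
Log2 ratio of the pif4 hybrid to the Col hybrid at 22 °C on day 4 (horizontal) and day 7 (vertical), for genes that averaged 5 CPM or more (grey) and the tested members of 3 lists (coloured, also below 5 CPM). Of the shade and elongation genes 21 of 29 lie in the lower left, 11 of 18 iron genes lie in the upper right, and 34 of 35 light-harvesting genes lie in the lower left. The grey points near 3 and above on the vertical axis are the 16 loci that were low in the Col libraries of day 7.

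Lists with 0 members at an unadjusted p under 0.05 included auxin synthesis, the circadian clock (23 tested, median -0.01), brassinosteroid (12, -0.08), ethylene (15, -0.12), salicylic acid and defence (12, -0.08), glucosinolate (27, 0.09), chlorophyll synthesis (19, -0.09), cell cycle (27, -0.05), nitrate and phosphate (7, -0.11) and stomatal lineage (9, -0.01). A p above that level does not show that the hybrids act alike. Seed genes were near the detection limit, with 2 of 12 tested.

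**Figure D4:**
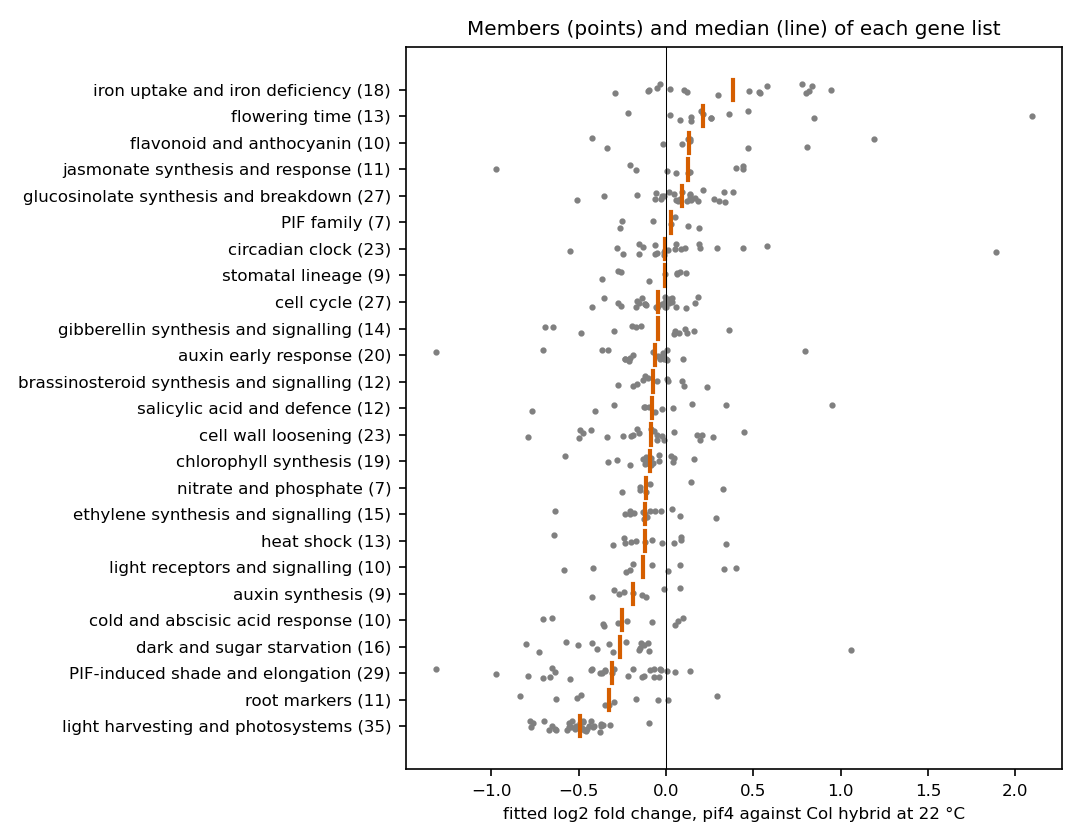
Fitted log2 fold change of the pif4 hybrid against the Col hybrid at 22 °C for each tested member (points) of the lists with at least 7 tested members, with the list's median as a line and the number tested in brackets. The lists are sorted by median, from -0.50 for light harvesting to 0.39 for iron uptake, and points are spread vertically only to separate them.

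At 27 °C the same contrast called 17 genes (0.0857%), with 731 (3.69%) at an unadjusted p under 0.05. The 27 °C libraries are not those of 22 °C, but both contrasts come from 1 fit that shares its estimate of the spread. Of the genes lower at 22 °C at that level, 49 were also lower at 27 °C, which is 22.2% of the 221 and 13.3% of the 369 (1.86% of all genes) at 27 °C. Of those higher, 35 were higher at both, 17.3% of 202 and 9.67% of 362 (1.83% of all genes), of which 11 are loci low in the Col libraries of day 7, which leaves 24. The difference between the temperatures was called for 0 genes in edgeR's test, with 316 (1.59%) at an unadjusted p under 0.05, and by DESeq2's Wald test also for 0. TSPO, AT3G17520 and BETA-TIP had the smallest p for it. All 3 lay at or below 4.05 CPM at 22 °C, and BETA-TIP had 0 counts in both Col libraries there.

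At an unadjusted p under 0.05, 13 of 29 shade and elongation genes were lower at 27 °C, against 1.86% of all genes. At 22 °C it was 7 of 29, against 1.11% of all genes. The list's median was -0.27 at 27 °C and -0.31 at 22 °C. ST2A had 257 and 34.6 CPM on day 4 at 27 °C and 227 and 95.8 on day 7, and was called there (log2 fold change -2.06, SE 0.27, adjusted p = 0.00239 in edgeR's test). XTH15 was called too, at -1.11 (adjusted p = 0.0294 in edgeR's test). IAA29 was the reverse case, with -0.61 at 27 °C against -1.32 at 22 °C. The differences of ST2A (unadjusted p = 0.0169 in edgeR's test) and IAA29 (unadjusted p = 0.0237 in edgeR's test) were not called after adjustment. IRT1 lay at far lower levels at 27 °C than at 22 °C, where it had 88.7 and 169 CPM on day 4: it had 4.02 and 17.4 CPM on day 4 and 5.96 and 8.29 on day 7, with a log2 fold change of 1.22. FRU had 19.3 and 18, then 15.5 and 15.7 CPM, with -0.04 against 0.54 at 22 °C. HTA4, AT4G13572 and AT4G13575, neighbours on chromosome 4, were called higher at 27 °C and had log2 fold changes of 0.45, 0.33 and 0.56 at 22 °C.

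**Figure D5:**
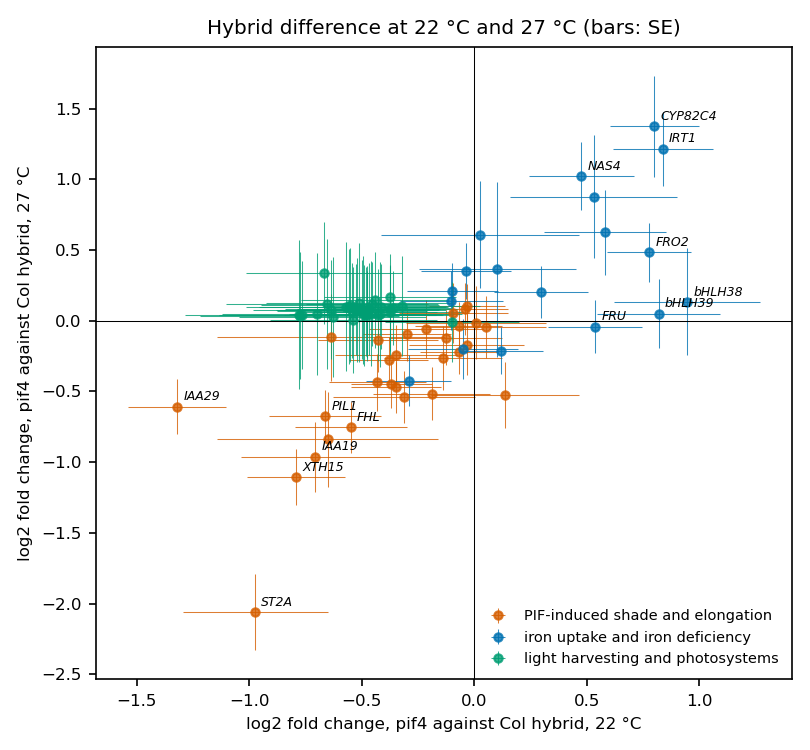
Fitted log2 fold change of the pif4 hybrid against the Col hybrid at 22 °C (horizontal) and 27 °C (vertical) for the tested members of 3 lists, with bars of 1 SE from the fit on 8 libraries. ST2A lies farthest down at -2.06, IAA29 farthest left at -1.32, and IRT1 and CYP82C4 lie in the upper right. The light-harvesting genes lie between -0.78 and -0.10 at 22 °C and near 0 at 27 °C. Their 27 °C values combine opposite pairs, with median log2 ratios of -0.56 on day 4 and 0.71 on day 7.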

How the data were processed

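RNA of pooled seedlings was sequenced in 8 libraries, of which 4 were grown at 22 °C. The authors deposited raw read counts per locus, whole numbers for 33602 loci. Tools listed in the submitters' processing notes, with no settings, were HTSeq 0.6.1p1, StringTie 1.3.5, HISAT2, Picard and FastQC 0.11.5, and the build was TAIR10. Per the labels, a stranded and an unstranded kit were used, without saying for which library. The reference annotation, TAIR10.1, names 32835 of the loci.

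Loci were kept at 0.876 CPM (10 counts in the median library) or more in at least 4 of 8 libraries. Counts were scaled by TMM and tested with edgeR 4.0.16 (R 4.3.3; quasi-likelihood F-test, Benjamini-Hochberg adjustment) in 1 fit of 8 libraries, with a mean for each temperature and day and a hybrid effect for each temperature, leaving 2 residual degrees of freedom. The 27 °C libraries add to the estimate of the spread and to the choice of genes tested (18069 genes with the 4 libraries of 22 °C alone). The SE is the fold change divided by the square root of F. DESeq2 1.42.0 was an alternative. The fits were tested on simulated data. Libraries of the same day were paired, since the labels give the day.

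Named genes were the 10 of smallest p in each direction with the same sign on both days and a mean of 5 CPM or more, since none passed the threshold, the 2 of smallest p in each of 26 lists, the PIF family, and the 3 genes whose effect differed most clearly between temperatures, by p. Other genes were named after their values were seen. Members and lists were chosen with earlier results of these data known. The result for 1 root marker is not reported here.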

Additional observations from a re-analysis of the deposited data

Results flagged for a closer look

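In 7 named genes averaging 5 CPM or more at 22 °C, both pairs at 22 °C differed one way and both pairs at 27 °C the other way. The share of all genes with this pattern was not counted. The 7 are therefore not shown to be more than such a share would give. The difference between the temperatures (22 °C minus 27 °C, log2) was not called for any of them by edgeR's test, with an adjusted p of 1. It was 0.20 for PIF3, -0.40 for TAA1 (auxin synthesis), -0.60 for EXPA16, -0.89 for the co-chaperone gene BAG6, 0.64 for the heat shock factor gene HSFA7A, 0.45 for SPX1 (phosphate signalling) and -1.16 for LRX1.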

How the results depend on the processing

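The numbers of genes called at 22 °C, 0 higher and 0 lower, held with DESeq2 size factors, upper-quartile factors, a mean of at least 5 CPM, an additive day effect, thinned counts and without the 16 loci low in the Col libraries of day 7 (a choice made after seeing the data). Without the replicate block (day left out) they were 0 and 0 as well. Other settings moved them. DESeq2's Wald test called 1 lower, no filter on low counts 24 higher and 8 lower, the 4 libraries of 22 °C with day as block 31 and 47, and the library total as covariate 21 and 6. Leaving out 1 library each gave 2 to 36 higher and 3 to 52 lower: 20 and 3 without either 22 °C library of day 4, 2 and 4 without either of day 7, and 27 to 36 and 34 to 52 without a 27 °C library. The difference between temperatures went from 0 calls to 6 with no filter, 42 with the covariate and 10 to 645 with 1 library left out. The cause was not tested. With 1 library of 22 °C left out, the hybrid effect at 22 °C rests on the pair of the other day. Those fits are therefore no separate check of that effect.

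The light-harvesting median reversed to 0.13 with the covariate, and the flowering median was 0.26 there and 0.087 to 0.28 with 1 library left out. The fit with the covariate left 1 residual degree of freedom. Single genes that reversed were EM6 (-0.83, DESeq2), PER1 (-0.50) and AT3G17520 (-0.074) with an additive day effect, PIF7 (-0.12), PIF3 (-0.018), PIF1 (-0.33) and LOX3 (-0.094) with thinned counts, and UNE10 (-0.082), PIF3 (-0.0015), PIF1 (-0.12), RBCS3B (0.069), RBCS1B (0.18) and NIA2 (0.053) with the covariate. With 1 library left out, the range took in the other sign for PIF1 (-0.040 to 0.13), PORA (-2.35 to 0.14), DIN1 (-1.48 to 0.021), BCAT2 (-2.11 to 0.25), EM6 (-3.57 to 1.34) and AT3G17520 (-1.02 to 0.53). The 1664128 counts of the Col library of day 4 limit all day 4 values.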
